A study of Mus musculus with 2 samples.

Results

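The genes described are 49 that copy DNA, divide chromosomes or hold the cell cycle in check, measured in memory T helper 2 (Th2) cells that did or did not make interleukin-5 (IL-5). They were chosen by name, as every probe set whose only gene symbol in the array's annotation was on the list, and 48 of the 49 had such a probe set, out of 18193 named genes. The signal of Ccnb1 (cyclin B1) was not analysed here, only its promoter. Both samples came from CD4 T cells of DO11.10 mice, whose transgenic T cell receptor sees an ovalbumin peptide. The cells were grown with that peptide, 25 U/ml IL-2 and 100 U/ml IL-4 for 6 days and given to BALB/c nu/nu mice, which lack a thymus and hence most T cells of their own. Memory cells were taken from the spleen 30 days later and sorted into an IL-5+ and an IL-5- sample. RNA from each was hybridised to 1 Affymetrix mouse array. The sources used here do not give the age or number of the recipients, whether RNA was pooled, or how cells were stimulated for the sort.

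With 1 array per group there is no replicate and no p-value, and every ratio below compares these 2 RNA samples only. For each gene the signal in IL-5+ cells was divided by that in IL-5- cells, at the gene's brightest probe set, and given as a log2 ratio, so that a negative ratio means a lower signal in IL-5+ cells. The only error that can be measured is the disagreement between probe sets of 1 gene. Over all genes its SD, on the log2 scale, was 0.55 at a mean signal between 36.3 and 112.8, 0.37 up to 500, 0.21 up to 2000 and 0.13 at higher signals. It leaves out any difference between cell preparations. The sorting marker Il5 gave 37085 for IL-5+ cells against 67.4 for IL-5- cells. A signal is called above the floor when it exceeds 36.3, the 40th percentile of all signals.

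Before a cell divides it licenses its replication origins by loading the MCM helicase, fires them with the help of the GINS complex, copies the DNA with polymerases held by the PCNA clamp, and then separates the chromosomes with a spindle. Cyclins and their kinases (CDKs) drive these steps, the E2F factors switch on many of the S-phase genes, and RB and the CDKN proteins restrain them. Resting memory T cells divide seldom, and this machinery is induced when T cells are activated.

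Genes of S phase and of mitosis are known to carry different promoter elements, so the promoters of a few members are shown with the letters searched for. Of the 49 members, 41 had a promoter window in RefSeq's annotation of GRCm38.p6, with 46 windows in all. Gins1, Gins2, Mcm4, Rb1, Ccnd2, Ccna2, Ccne2 and Aurkb had none. The windows are the 250 bases before each start. Capitals mark an E2F-type octamer (TTTGGCGC, TTTCCCGC, TTTCGCGC or TTTGCCGC), the element called CHR, known from mitotic genes (TTTGAA), or a CCAAT box (CCAAT), each on either strand. Mcm6 (chr1:128359706-128359955, minus strand) and Rfc3 (chr5:151651209-151651458, minus strand) are S-phase genes with low ratios, Cdk1 (chr10:69352913-69353162, minus strand) is the mitotic kinase, and Cdkn1b (chr6:134920151-134920400, plus strand) is the inhibitor gene with the highest ratio.
Mcm6: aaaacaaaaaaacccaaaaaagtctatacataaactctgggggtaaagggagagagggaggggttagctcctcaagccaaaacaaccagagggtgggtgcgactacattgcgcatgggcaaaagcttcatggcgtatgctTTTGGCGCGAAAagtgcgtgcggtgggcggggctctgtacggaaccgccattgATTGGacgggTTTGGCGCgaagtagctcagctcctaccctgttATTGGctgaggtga
Rfc3: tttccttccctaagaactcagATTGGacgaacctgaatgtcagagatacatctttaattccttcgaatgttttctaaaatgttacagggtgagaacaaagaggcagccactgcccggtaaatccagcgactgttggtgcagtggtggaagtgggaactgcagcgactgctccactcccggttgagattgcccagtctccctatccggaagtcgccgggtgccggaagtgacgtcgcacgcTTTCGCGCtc
Cdk1: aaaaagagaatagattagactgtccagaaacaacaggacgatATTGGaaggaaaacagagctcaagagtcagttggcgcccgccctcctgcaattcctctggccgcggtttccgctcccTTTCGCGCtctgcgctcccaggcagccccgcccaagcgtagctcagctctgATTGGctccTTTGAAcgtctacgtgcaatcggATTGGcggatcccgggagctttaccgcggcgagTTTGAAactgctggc
Cdkn1b: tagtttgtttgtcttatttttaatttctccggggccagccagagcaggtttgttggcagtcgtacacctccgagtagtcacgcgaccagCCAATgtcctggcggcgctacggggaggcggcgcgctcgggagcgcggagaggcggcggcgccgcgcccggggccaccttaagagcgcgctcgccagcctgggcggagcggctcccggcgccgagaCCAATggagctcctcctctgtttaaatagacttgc
In Mcm6 there were 3 E2F-type matches, of which those starting at -110 and -106 from the gene's start overlap and the third starts at -47. Rfc3 had 1, starting at -10. Cdk1 had 1 at -131 and CHR matches at -71 and -15. Cdkn1b had neither, and held CCAAT boxes at -161 and -35. Over the S-phase genes, 6 of 18 windows (33.3%) held an E2F-type octamer, against 1.86% of all 32851 windows in the table and 1 of 14 windows of mitotic genes. A CHR match stood in 6 of 14 mitotic windows (42.9%), against 16% of all windows and 1 of 18 S-phase windows. CCAAT was present in 13 of 18 S-phase and 12 of 14 mitotic windows, and in 33.8% of all. Several windows can belong to 1 gene, and a match is not a measured binding site.

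The replication and mitosis genes were, with few exceptions, modestly lower in IL-5+ cells, and 3 of 4 inhibitor genes were higher. All 48 members were above the floor on both arrays. The ratio was below 0 in 42 of the 48, where 55.5% of the 13133 named genes above the floor on either array had a ratio below 0. The median of the members was -0.48, against -0.048 over all these genes. Leaving out the inhibitors, 41 of 44 were below 0. The differences were small: 1 member was at least 2-fold lower and 0 were at least 2-fold higher, against 4.01% and 2.85% of all genes. At least 1.5-fold lower were 12 members, or 25% against 11.9% of all genes, and 1 was at least 1.5-fold higher, against 7.88%. Bright genes vary less between probe sets. Among members over 500 on both arrays, the inhibitors left out, 23 of 24 were below 0, where 52.8% of the 5519 genes that bright were, and their median was -0.48 against -0.016. Of these 24, 4 were at least 1.5-fold lower, or 16.7% against 4.17% of genes that bright. The bulk signal of a gene cannot tell fewer dividing cells from less RNA per cell.

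**Figure D1:**
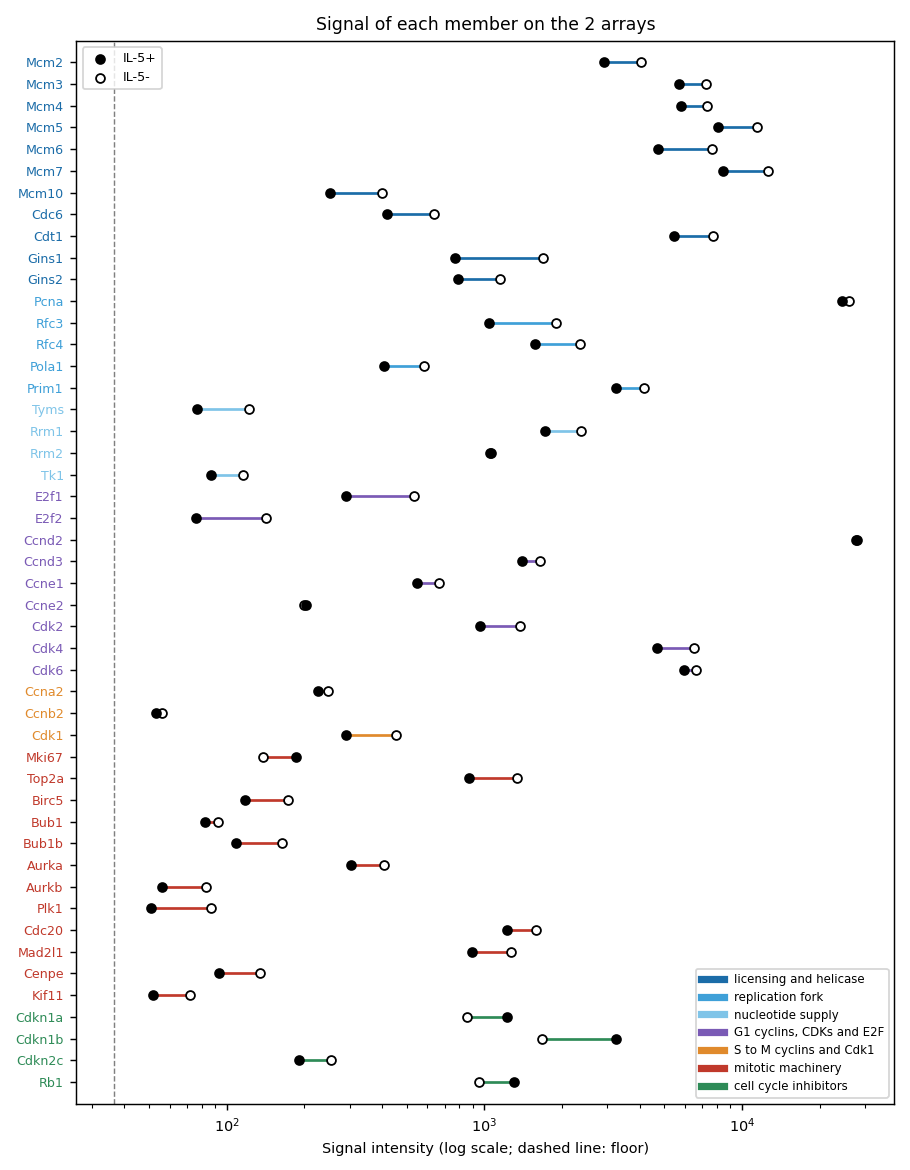
Signal intensity of the 48 members in IL-5+ cells (filled) and IL-5- cells (open), on a log axis, coloured by role, with a dashed line at the floor of 36.3. The filled point lies to the left in 42 of 48 members, and to the right in Mki67, Cdkn1a, Cdkn1b and Rb1 by a visible distance.

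Of the licensing and helicase genes, all 11 were below 0, with a median of -0.54. Mcm2 to Mcm7 encode the 6 subunits of the replicative helicase ring, and their ratios lay between -0.70 and -0.34. Mcm6 had signals of 4731 in IL-5+ and 7676 in IL-5- cells (log2 ratio -0.70), and Mcm7 had 8459 and 12619 (-0.58). Both genes were lower at each of their measured probe sets, 2 of Mcm6 and 4 of Mcm7, the latter from -0.81 to -0.58. Mcm5 stood at 8032 and 11412 (-0.51), and Mcm2 at 2916 and 4067 (-0.48). Mcm3 and Mcm4 had the smallest differences of the ring, each at -0.34, and their probe sets ranged from -0.59 to -0.30 and from -0.34 to -0.09. At these brightnesses the SD between probe sets is 0.13, and the ratio of each ring gene at its brightest probe set exceeded it. Cdt1 and Cdc6, which load the ring onto origins, had 5427 against 7715 (-0.51) and 418 against 638 (-0.61). Mcm10, which helps to activate the helicase, had 250.3 against 401 (-0.68).

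GINS joins the MCM ring to form the active helicase. Gins1 was the member with the largest difference, at 771 in IL-5+ and 1686 in IL-5- cells, 2.19-fold lower (log2 ratio -1.13), which only 2.88% of all genes above the floor undercut. Its second probe set was dim and gave -0.50, and with the median of both the ratio was -0.82, under 2-fold. Gins2 had 791 against 1151 (-0.54), with -0.61 at its other probe set. The subunits that are not members, Gins3 and Gins4, were named after their values were seen and stood at -0.13 and -0.37.

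At the replication fork all 5 members were below 0 (median -0.51), although by very different amounts. Rfc3 and Rfc4 belong to replication factor C, which loads the PCNA clamp. Rfc3 had 1039 against 1896 (-0.87) and Rfc4 had 1570.5 against 2340.2 (-0.58), and the second probe set of each gave -0.68 and -0.72. The other 3 subunit genes, Rfc1, Rfc2 and Rfc5, named here to complete the complex, stood at -0.39, -0.56 and -0.65, although 1 of the 3 Rfc2 probe sets was at 0.24. Pola1, the catalytic subunit of the polymerase that starts new strands, had 407 against 581 (-0.51), and its primase partner Prim1 had 3237 against 4157 (-0.36). Pcna itself had nearly equal signals, 24450.1 and 26032 (-0.090), within the SD of 0.13 between probe sets.

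Of the 4 genes of nucleotide supply, 3 were below 0 (median -0.44). Rrm1, the large subunit of ribonucleotide reductase, had 1722 against 2369 (-0.46), and its other measured probe set gave -0.35. Rrm2, the small subunit, whose amount is known to follow S phase, had equal signals of 1062 and 1048 (0.019), and its 3 probe sets ranged from -0.24 to 0.08. Tyms (thymidylate synthase, 76.8 against 121, -0.66) and Tk1 (thymidine kinase, 86.5 against 116, -0.42) were dim. With the floor raised to 112.8, the 60th percentile of signals, they stood at -0.11 and -0.035.

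Among the genes that control entry into S phase, 8 of 9 were below 0, with a smaller median of -0.27. The kinase genes Cdk4 and Cdk2 had 4656.5 against 6502 (-0.48) and 965 against 1378 (-0.51), and all 3 probe sets of Cdk4 lay between -0.48 and -0.36. Cdk6, the partner kinase of Cdk4 in binding D cyclins, stood at -0.15, with probe sets from -0.31 to 0.50. Cyclin D2, the growth-signal-induced cyclin of lymphocytes, was very bright and the same on both arrays: Ccnd2 had 27732 and 28000.4 (-0.014), its 7 probe sets ranged from -0.025 to 0.33, and its sign changed when arrays were divided by their median or with the median of its probe sets. Ccnd3 had 1403 against 1648 (-0.23), with 2 dimmer probe sets at -1.03 and -0.60. The cyclin E genes stood at -0.27 (Ccne1) and 0.029 (Ccne2). E2f1 had 290 against 535 (-0.88) at its brightest probe set and -0.24 at the other. E2f2 was dim, and its probe sets disagreed in sign, at -0.91 (75.6 against 142) and 0.60. For E2f1 and E2f2 the array therefore gives no agreed size, and for E2f2 no agreed direction. E2f3, not a member and named after its value was seen, had 623 against 494 (0.34), and 0.075 at its other probe set.

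**Figure D2:**
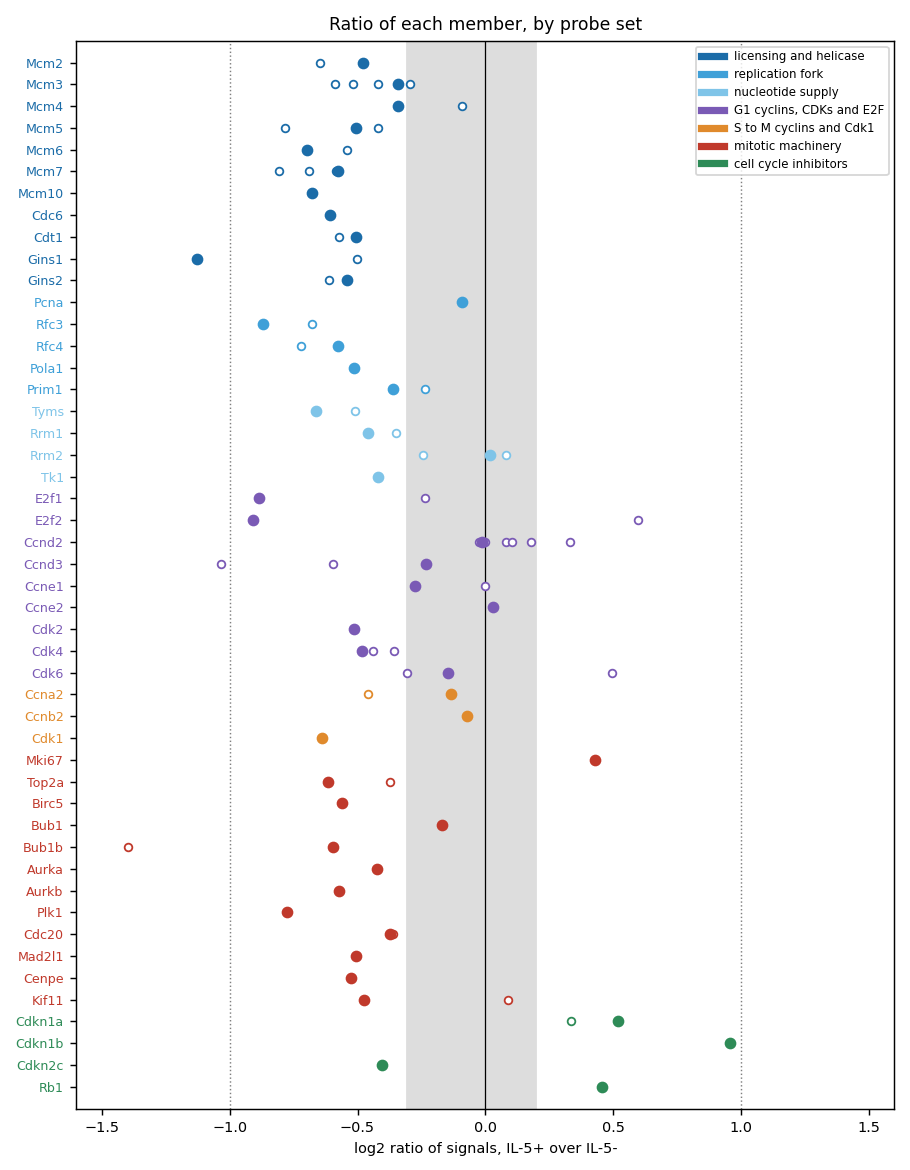
Log2 ratio (IL-5+ over IL-5-) of each member at its brightest probe set (filled) and at its other probe sets above the floor on both arrays (open), coloured by role. Grey covers the middle 50% of all genes above the floor, from -0.31 to 0.20, and dotted lines mark 2-fold. Most blue and red points lie to the left of the grey band, and the green points of Cdkn1a, Cdkn1b and Rb1 to its right.

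The mitotic genes had a median of -0.51, as low as that of the S-phase genes (-0.51), with 14 of 15 below 0, but they were dimmer and their single values are less certain. Cdk1, the kinase that triggers mitosis, had 290 against 452 (-0.64). Its cyclin partners differed little, with Ccna2 at 226 and 248 (-0.13, and -0.46 at its other probe set) and Ccnb2 at 53.1 and 55.8 (-0.072). The Ccnb2 ratio turned positive when arrays were divided by their median and was 0 with quantile scaling. Top2a, the topoisomerase that untangles sister chromatids, was among the brighter genes, at 872 against 1335 (-0.61). Of the spindle checkpoint genes, Mad2l1 had 892 against 1269 (-0.51), Bub1b had 108 against 164 (-0.60, and -1.40 at another probe set) and Bub1 had 82.2 against 92.4 (-0.17). Cdc20, the activator of the anaphase-promoting complex, had 1228 against 1590.1 (-0.37) and -0.36 at its second measured probe set. The mitotic kinase genes Aurka (304 against 408, -0.42), Aurkb (55.8 against 82.9, -0.57) and Plk1 (50.8 against 86.9, -0.77) were lower too, and so were Birc5 (survivin, -0.56) and the spindle motor genes Cenpe (-0.52) and Kif11 (-0.48, with another probe set at 0.09). Aurkb, Plk1, Bub1, Kif11 and Ccnb2 were under 112.8 on both arrays, where the SD between probe sets is 0.55. Of these 5, Plk1 and, by little, Aurkb exceeded that SD.

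Mki67, the gene of the proliferation marker Ki-67, stood on the other side. It had 186 in IL-5+ and 138 in IL-5- cells, a log2 ratio of 0.43, higher than that of 87.5% of all genes. It had 1 probe set, and the SD between probe sets at this brightness is 0.37, so that its difference is about the size of that spread.

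Among the groups of members, the inhibitors were the one with a median above 0 (0.49), with 3 of 4 genes higher. Cdkn1b, which encodes p27, the CDK inhibitor of resting T cells, had 3230.4 in IL-5+ and 1666 in IL-5- cells, 1.94-fold higher (log2 ratio 0.96). It lay above 96.9% of all genes, and its second probe set, which passed the floor in IL-5+ cells only, had 51.8 against 23.5. Cdkn1a, which encodes p21, the inhibitor induced by p53 and other signals, had 1224 against 855 (0.52), and 0.34 at its other probe set. Rb1, the retinoblastoma gene, had 1306 against 951 (0.46). Cdkn2c, encoding p18, went the other way, with 191 against 253 (-0.40). Cdkn genes that are not members, named after their values were seen, were not higher. Cdkn2d had 452 against 623 (-0.46), Cdkn1c stood at -0.16 and Cdkn2b at 0.00074. Cdkn2a and Cdkn3 were under the floor on both arrays. The p53 target genes other than Cdkn1a did not lean to either side, with 6 of 13 below 0, a median of 0.089 and a mean of -0.0082. They included Perp, a cell adhesion and apoptosis gene (879 against 275, 1.68), Sesn2 (0.72, with another probe set at -0.38), Bbc3, the death gene PUMA (-0.97), and Trp53inp1 (4897 against 14455, -1.56).

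**Figure D3:**
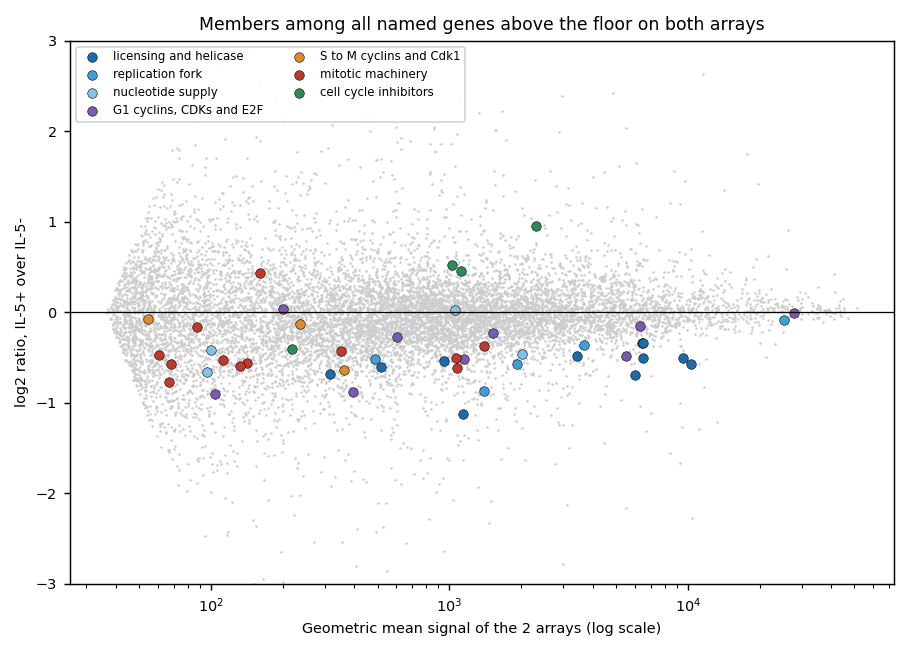
Log2 ratio, IL-5+ over IL-5-, against the geometric mean signal (log axis) for the 10990 named genes above the floor on both arrays (grey) and the members (coloured by role), with 17 genes beyond the axis limits of -3 and 3. The spread of grey points narrows with signal, and the licensing genes above 2000 lie in its lower part between -0.70 and -0.34.

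Lists of further genes of the same processes were read in the same way. Of 40 other replication genes above the floor, 37 were below 0 (92.5%, median -0.40), where 55.5% of all genes were. At least 1.5-fold lower were 9 (22.5% against 11.9% of all genes), none of them 2-fold, against 4.01%. The lowest were Lig1, which joins the fragments of the lagging strand (721 against 1294, -0.84), Pole, the leading-strand polymerase (-0.78), Uhrf1, which keeps DNA methylation through replication (1206 against 1991, -0.72), and the histone chaperone gene Chaf1b (-0.70). The genes of the origin recognition complex were mixed, with 4 of 6 below 0 (66.7%) and a median of -0.11. Of these, Orc1, named after its value was seen, had 433 against 679 (-0.65). Recombination repair genes, which act at broken forks, had the lowest median of all lists here, -0.61. In that list 14 of 15 were below 0 (93.3%) and 8 were at least 1.5-fold lower (53.3%). The lowest were Fanci (78.9 against 152.9, -0.95), Exo1 (255 against 485, -0.93), Rad51ap1 (264 against 484, -0.87, with 4 probe sets from -0.87 to -0.71) and Rad54l (91.8 against 167.9, -0.87). Most genes of the list were at or under 500 on an array, and 17.5% of all genes that dim were at least 1.5-fold lower. This list shares Rpa1 with the replication list and Chek1 with the regulators.

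The other mitotic genes leaned less to 1 side, with 36 of 47 below 0 (76.6% against 55.5% of all genes) and a median of -0.28. Of these 47, 4 were at least 2-fold lower, where 4.01% of all genes were. The condensin gene Smc4 was the bright one, at 2987 against 6138 (-1.04), and its 3 probe sets ranged from -1.04 to -0.74. The kinetochore genes Spc24 (72.6 against 209.7, -1.53) and Cenpk (-1.14, and -0.40 at its other probe set) and the centrosome kinase gene Nek2 (53.1 against 116, -1.12) were dim. Among other cell cycle regulators, 22 of 33 were below 0 (66.7% against 55.5% of all genes) and the median was -0.16. Rbl1, encoding p107, a relative of RB that is itself an E2F target, had 965 against 1788 (-0.89, and -0.36 at its other probe set). Mxd4, which encodes a repressor that competes with MYC for its partner, was close to 2-fold higher (258 against 129, 0.99). Foxm1 and Mybl2, which drive mitotic genes, were dim and went opposite ways, at 0.73 and -0.66. In the list of histone and chromatin genes of replicating cells, 7 of 9 were below 0 (median -0.26), with Ezh2 (2544 against 3689, -0.54), H2ax (-0.33) and Tmpo (-0.32, with probe sets up to 0.10) lower. The histone variant gene H2az1 was higher in IL-5+ cells (15655 against 8382, 0.90), at both of its probe sets (0.90 and 0.97).

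**Figure D4:**
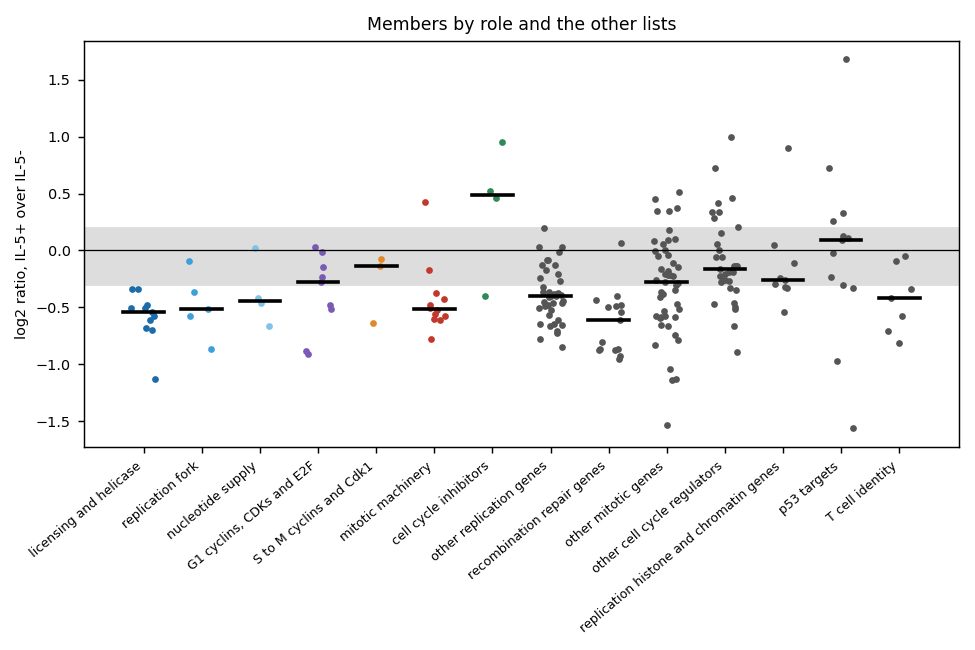
Log2 ratio, IL-5+ over IL-5-, of each gene above the floor (points) by member role, in the other lists and in the T cell list, with the median of each list as a bar and the middle 50% of all genes in grey. The bars of the licensing, fork, nucleotide, mitotic machinery, other replication, recombination repair and T cell lists lie below the grey band, and that of the inhibitors above it.

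Genes of T cell identity were lower in IL-5+ cells too. All 7 with a named probe set (Cd3d, Cd3e, Cd3g, Cd247, Cd4, Cd2 and Cd5) were below 0, with a median of -0.42, from -0.81 for Cd247 (3433 against 6033) to -0.051 for Cd4, and their summed signal was 36643 against 50991. The direction was that of the replication genes, and its part in their difference was not tested. Markers of other spleen cells were read on both arrays as well, and their part in the difference of the replication genes was not tested. The erythroid genes Alas2 (2.60 and 8.10) and Slc4a1 were under the floor on both arrays. Ratios were above 0 in 4 of the 6 above the floor on either array and below 0 in 2. The brightest, Tfrc, the transferrin receptor that activated T cells also carry, was higher in IL-5+ cells (8635 against 5203). Car2 had 114 and 122. Epor (86.5 and 63.9), Klf1 (46.1 and 33.1) and Hba-a1 (36.7 and 14), named after their values were seen, were also higher in IL-5+ cells. Of 9 B cell markers 4 were under the floor on both arrays, including Cd79b (11.5 and 34.9). The brightest by mean log2 signal were Ms4a1 (60.7 and 62.1) and Fcer2a (41.3 and 30.1). Ratios were below 0 in 2 of the 5 above the floor on either array and above 0 in 3. Pax5, named after its value was seen, was among those below, at 6.4 and 70.2. Of the 8 plasma cell genes, the brightest were Xbp1 (15416 and 12996) and Irf4 (9980 and 14340), which T cells also express. Ratios in that list were below 0 in 4 of the 7 above the floor on either array and above 0 in 3. Named after their values were seen, Jchain had 28.8 and 67.7, Pou2af1 159 and 385, Mzb1 100.6 and 57.6 and Sdc1 57.3 and 51.2. Of 11 monocyte and macrophage markers 6 were under the floor on both arrays, and the brightest were Csf1r (106 and 125) and Cd68 (109 and 75.8). The brightest dendritic cell genes were H2-Ab1 (157 and 250.4) and Cd74 (140 and 164). In that list, ratios were below 0 in 5 of the 7 above the floor on either array and above 0 in 2. Those below included H2-Aa (51 and 155.8) and Itgax (18 and 70.1), named after their values were seen. Those above, named in the same way, were Zbtb46 (149.7 and 79.1, with probe sets from -0.33 to 0.92) and Xcr1 (41.1 and 8). Of 6 neutrophil markers Elane alone was above the floor (62.2 and 48.1), with the next brightest, Mpo, at 5.50 and 25.9. The NK cell markers brightest by mean log2 signal were Ncr1 (18.3 and 21.1) and Fcer1g (61.4 and 4.70). Of the other 2 with a named probe set, named after their values were seen, Klre1 had 39.4 and 3.90 and Klra8 27.6 and 3.40. Ncr1 and Klra8 were under the floor on both arrays, and Fcer1g and Klre1 passed it in IL-5+ cells only. The CD8 genes Cd8a and Cd8b1 had 66.9 and 76.7, and 280.2 and 168. The summed signal of each list in IL-5+ and IL-5- cells counts signals under the floor too. It was 147 and 33.1 for the NK cell list, 8972 and 5512 for the erythroid list, most of it Tfrc, and 347 and 245 for the CD8 genes, all higher in IL-5+ cells. In the NK cell list every IL-5- signal was under the floor. The sum was 262 and 286 for the B cell list, 26001 and 28289 for the plasma cell list, most of it Xbp1 and Irf4, and 358 and 423 for the monocyte list, all lower. It was also lower for the dendritic cell list, at 593 and 789.7, and for the neutrophil list, at 90.8 and 137. Elane, the only neutrophil marker above the floor, was higher in IL-5+ cells, so the lower neutrophil sum came from signals under the floor.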

How the data were processed

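RNA from 1 IL-5+ and 1 IL-5- sample was measured on Affymetrix arrays. The authors deposited linear signal intensities, 1 for each probe set, which the scanner software GCOS produced per the submitters' processing notes. The sources used here name no version, algorithm or scaling target. The trimmed mean signals (2% off each end) were 496 and 497, so ratios are relative to the rest of each array. Of 45037 probe sets, 34945 had 1 gene symbol in the platform annotation, 932 several and 9160 none listed. The members had 111 probe sets, 91 of them above the floor on both arrays.

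A gene was read at its brightest probe set by mean log2 signal, signals under the floor were set to it, and counts used a 2-fold or 1.5-fold threshold. No test was possible with 1 array per group, and precision is limited by the number of arrays. The members and lists were chosen with earlier results of these data known. All members could be named, with the 4 largest ratios of each other cell cycle list and the 2 brightest of each list of other cells. Alternatives were 3 scalings, 3 other treatments of dim signals, an added constant, 2 other choices of probe sets and 2 thresholds. The counting was tested on simulated arrays. The planted differences were larger than 2-fold, so that test does not cover differences as small as most of those reported here. Python 3.11.15, numpy 2.4.6, pandas 2.3.3 and statsmodels 0.14.6 were used.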

Additional observations from a re-analysis of the deposited data

How the results depend on the processing

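The medians of the S-phase, mitotic, G1 control and inhibitor genes and of all members kept their sign and moved by less than 0.28, the SD between probe sets of the members, in each of the 9 alternatives of scaling, dim signals and probe sets. The S-phase median ranged from -0.57 to -0.43, the mitotic median from -0.51 to -0.38. From 37 to 42 members were below 0, the 37 standing where 43 could be used. With the median of probe sets 0 members were 2-fold lower, since Gins1 stood at -0.82, and thresholds of 1.5-fold and 3-fold gave 12 and 0 lower genes. Of higher genes there was 1, not 0, when arrays were divided by their median and at 1.5-fold, in each case Cdkn1b. No paired analysis was possible because each group had 1 sample. Of 422 member ratios under the alternatives, 11 moved by more than 0.28, and 46 of 48 members kept their sign throughout. Every member was above the floor on both arrays, so a lower floor or no floor could not change their ratios or medians. Those settings are among the alternatives counted. Dim signals limit the mitotic genes most.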
